A study of Danio rerio with 30 samples.

Results

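The transcriptome of the adult zebrafish telencephalon 2 days after a skull injury was compared with that of the intact telencephalon. The comparison rested on the 3 arrays labelled as skull injury at 2 days post injury (dpi) and the 5 arrays labelled as control, 8 of the 30 arrays of the study. A pair of the control arrays were technical arrays of intact replicate 1 and were averaged, which left 3 skull replicates against 4 intact replicates. All fish were wild-type, with an age of 3 to 5 months in the labels. Skull-injured fish were stabbed from above under MS-222 anaesthesia, with a micro-knife that pierced the bone and reached the medial part of both hemispheres. The intact group had no injury, and none of the 9 groups is labelled as sham-operated. The comparison groups named further on are skull injury at 1 dpi (3 replicates) and 3 dpi (4 replicates), and nostril injury at 2 dpi (3 replicates), in which a glass capillary reached both hemispheres through the nostrils. No source used here states whether a replicate is 1 fish or a pool, and the p-values may therefore cover no more than the technical scatter among these samples.

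A stab wound opens blood vessels and kills cells in the parenchyma. Microglia, the resident macrophages of the brain, and macrophages from the blood gather at such a wound, engulf debris and degrade it in lysosomes. Ependymoglia, the radial glia that line the ventricle of the fish telencephalon, act as neural stem cells, and oligodendrocyte progenitors also react to injury.

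Each probe set of the Affymetrix Zebrafish Gene 1.0 ST array is called a transcript here, and its values are log2 intensities. Limma was run on the replicates of all 9 groups together, which gave 20 residual degrees of freedom. Transcripts with a linear mean above 20 in at least 1 group were tested (40670 of 75212), and the linear mean of 20 corresponds to 4.32 on the log2 scale. The words "rose" and "fell" stand for a call, an adjusted p below 0.05 (Benjamini-Hochberg over the 40670 transcripts). Differences are skull 2 dpi minus intact on the log2 scale, with their standard error (SE), unless another pair of groups is named. Of the tested transcripts, 37.8% carry exactly 1 gene symbol, for 14372 genes, and where a gene has more than 1 probe set, the brightest on average stands for it.

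The arrays of both groups had medians from 4.26 to 4.35. The skull 2 dpi replicates correlated with one another at 0.974 to 0.98, the intact replicates at 0.971 to 0.982, and skull with intact replicates at 0.959 to 0.978. Most of the checked markers of the labelled tissue were high on all 8 arrays, with tbr1b and eomesa of pallial neurons at 9.61 to 9.99 and 8.41 to 8.77, dlx2a of the subpallium at 8.39 to 9.12 and the pan-neuronal elavl3 at 11.2 to 11.45. The telencephalic transcription factor gene foxg1b was the exception, at 3.22 to 3.69, and did not pass the filter on low values. The preoptic neuropeptide gene oxt was also high, at 11.64 to 12.92, and the olfactory marker ompb lay at 3.72 to 4.38.

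After the skull injury 123 of 40670 transcripts differed from intact (0.302%), of which 115 rose (0.283%) and 8 fell (0.0197%). At the level of named genes 57 of 14372 were called (0.397%), 56 of them higher (0.39%) and 1 lower (0.00696%). The rises of the 56 genes ranged from 0.50 to 2.42, with a median of 1.32, and 43 of them reached a fold change of 2. At an unadjusted p below 0.05, 1065 genes were higher (7.41%) and 329 lower (2.29%), and by the criteria of the study's methods (unadjusted p below 0.05, more than 1.6-fold change, and a linear mean over 20 in at least 1 of the groups) 781 transcripts were regulated (1.92%), of which 442 were higher (1.09%) and 339 lower (0.834%). Across all genes tested the median difference was 0.045, and 60.2% of the estimates were positive and 39.8% negative. Among the called transcripts 64 have no single symbol, and several of these share every value with another probe set, so that the 123 hold 118 distinct sets of values.

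The number of calls depended on the replicates. Leaving out intact replicate 1, 2, 3 or 4 kept the call of 32, 30, 35 or 50 of the 57 genes, and leaving out skull replicate 1, 2 or 3 that of 14, 34 or 21. All 57 kept their direction each time. This was fixed in advance, because in each of them the skull and intact values did not overlap. The genes called under each of these 7 omissions were arpc1b, ccl34b.1, cndp2, enpp1, ifi30a, laptm5, lgals9l1, mcamb, psme1, pycard, si:dkey-22o12.2, si:dkey-27i16.2 and tspan36, 13 in all. Single replicates stood out across the 56 genes that rose. Intact replicate 4 held the highest intact value in 38 of the 56 (67.9%, against 28.2% of all genes), and skull replicate 2 the lowest skull value in 39 (69.6%, against 33.2% of all genes).

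The largest rises among the named genes are shown by replicate in the plot of leading genes, and they hold receptors, lysosomal proteins and signalling adaptors of leukocytes.

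**Figure D1:**
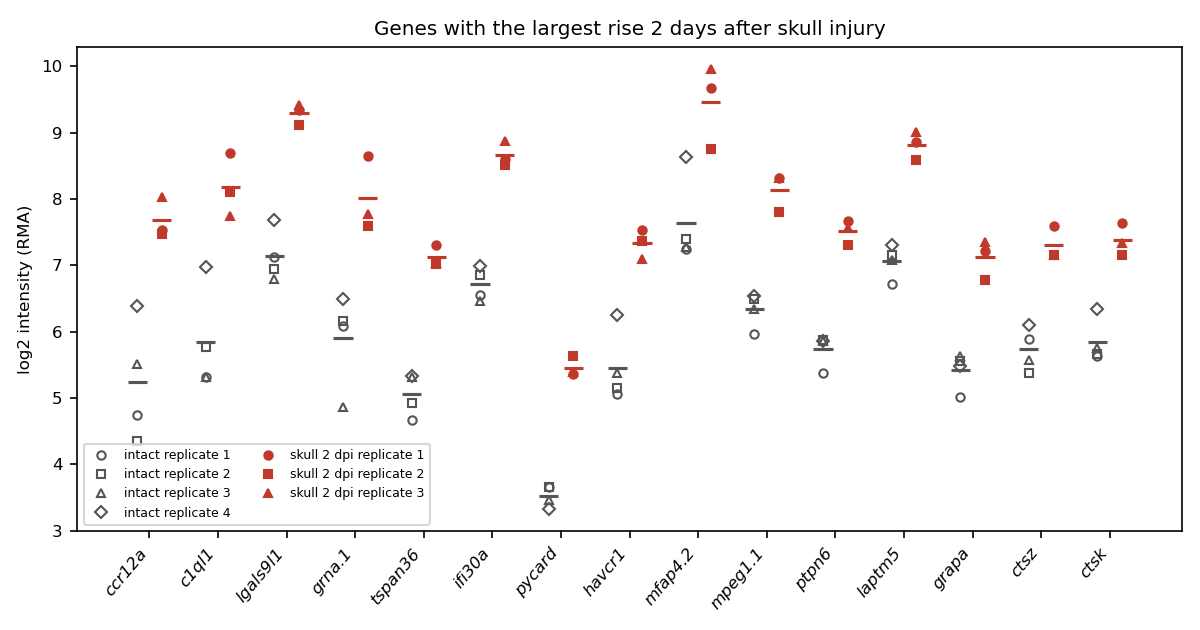
The 15 named genes with the largest rise, with the log2 intensity (RMA, vertical axis) of each of the 4 intact replicates (open grey symbols) and the 3 skull 2 dpi replicates (filled red symbols). Horizontal bars are group means, and in all 15 genes the lowest red symbol lies above the highest grey symbol.

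Receptors and other proteins linked to macrophages are described first, not ranked by the size of the rise. The gene ccr12a, for a chemokine receptor of fish leukocytes, measured 4.74, 4.36, 5.51 and 6.39 in intact replicates 1 to 4 and 7.53, 7.47 and 8.03 in skull replicates 1 to 3. This was the largest rise of a named gene, 2.42 ± 0.46 (SE), or 5.37-fold (adjusted p = 0.0134), although intact replicate 4 lay closer to the skull values than the other intact replicates did. The gene lgals9l1, which encodes a galectin-9-like lectin and marks zebrafish microglia, measured 7.13, 6.94, 6.80 and 7.68 in intact and 9.34, 9.12 and 9.42 after injury, a rise of 2.16 ± 0.35 (adjusted p = 0.00417). tspan36, a tetraspanin, went from 4.67 to 5.34 in intact to 7.02 to 7.31 after injury and rose by 2.06 ± 0.26 (adjusted p = 0.000563). havcr1, a receptor for phosphatidylserine on dying cells, measured 5.06, 5.15, 5.38 and 6.25 in intact and 7.54, 7.37 and 7.09 after injury, a rise of 1.87 ± 0.33 (adjusted p = 0.00822, and 0.0807 without skull replicate 1). The scavenger receptor gene MARCO spanned 4.44 to 5.86 in intact and 6.10 to 6.88 after injury, and its rise of 1.49 ± 0.32 (adjusted p = 0.0426) was lost in 6 of the 7 omissions of a replicate, the exception being intact replicate 4, with adjusted p up to 0.285. For ccr12a the call was lost without intact replicate 1 or 2 and without skull replicate 1 or 3, with adjusted p up to 0.101.

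Transcription factors and growth factor receptors that define the macrophage lineage moved in the same direction. spi1b, which encodes the myeloid transcription factor Pu.1, measured 5.07, 5.17, 5.11 and 5.24 in intact and 6.08, 6.24 and 6.50 after injury, and its intact replicates lay within 0.17 of one another. It rose by 1.12 ± 0.22 (adjusted p = 0.0193), and its paralogue spi1a by 0.84 ± 0.17 (adjusted p = 0.0216). Both calls were lost without any 1 of the skull replicates and without intact replicate 1 or 2, and that of spi1b also without intact replicate 3, with adjusted p up to 0.15 for spi1b and 0.189 for spi1a. csf1ra, one of the receptors for colony-stimulating factor 1 on which macrophages and microglia depend, spanned 5.62 to 6.12 in intact and 6.97 to 7.22 after injury, a rise of 1.23 ± 0.23 (adjusted p = 0.011) that was lost without skull replicate 1 or 3 (adjusted p up to 0.0889). Its paralogue csf1rb rose by 1.05 ± 0.23 with an adjusted p of 0.0497, the called gene closest to the threshold, and was called in none of the 7 omissions (adjusted p up to 0.311). mpeg1.1, which encodes the pore-forming macrophage protein perforin-2, measured 5.97, 6.50, 6.35 and 6.54 in intact and 8.31, 7.80 and 8.31 after injury, a rise of 1.80 ± 0.32 (adjusted p = 0.0097) that was lost without skull replicate 1 or 3 (adjusted p up to 0.0904). mfap4.2, of a family that marks zebrafish macrophages, rose by 1.83 ± 0.35 (adjusted p = 0.0169), with intact replicate 4 at 8.63 and the other intact replicates at 7.24 to 7.40. It belongs to no list and was lost in 5 omissions, those of intact replicate 4 and skull replicate 2 being the exceptions, with adjusted p up to 0.154. The paralogues mfap4.1 (1.64 ± 0.41, adjusted p = 0.117) and mpeg1.2 (0.14 ± 0.37, adjusted p = 0.946) were not called, and whether the probes separate close paralogues was not tested.

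Of the 41 markers listed for microglia and macrophages 33 were tested, 13 of them rose and none fell, against 0.39% of all genes that rose. The members of this and every other list were chosen with earlier results of these data known. Counts and medians of the lists are therefore a description and no independent support. At an unadjusted p below 0.05, 27 were higher (7.41% of all genes), and in 25 all skull values lay above all intact values, which held for 9.78% of all genes. The median of the 33 was 1.00, beside 0.045 over all genes. Their summed linear level was 6527 to 9201 in the intact replicates, highest in replicate 4, and 12296 to 15341 in the skull replicates. The whole tissue was measured, so that more cells of this type and more RNA per cell cannot be told apart. The 13 were tspan36, lgals9l1, havcr1, mpeg1.1, laptm5, itgb2, coro1a, csf1ra, csf1rb, spi1a, spi1b, hcls1 and ccl34b.1. The list also holds marco, which the array annotation writes as MARCO. It was not matched, so MARCO is missing from the counts of this list although it rose. Just outside the threshold lay lgals3bp.1 (1.69 ± 0.38, adjusted p = 0.0557), the actin bundler gene lcp1 (1.02 ± 0.23, adjusted p = 0.0588) and the amino acid transporter gene slc7a7 (1.52 ± 0.36, adjusted p = 0.0863). The macrophage transcription factor irf8 was at 5.51 to 5.76 in intact and 6.61 to 6.88 after injury, without an overlap, at 1.14 ± 0.33 (adjusted p = 0.224). Not all markers were called. The purinergic receptor genes p2ry12 and p2ry13 differed by 0.32 ± 0.20 and -0.04 ± 0.19 (adjusted p = 0.664 and 0.973), and the apolipoprotein gene apoeb by 0.47 ± 0.15 (adjusted p = 0.313) at 10.93 or more in every replicate. The plot of the list by replicate shows this gradation.

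**Figure D2:**
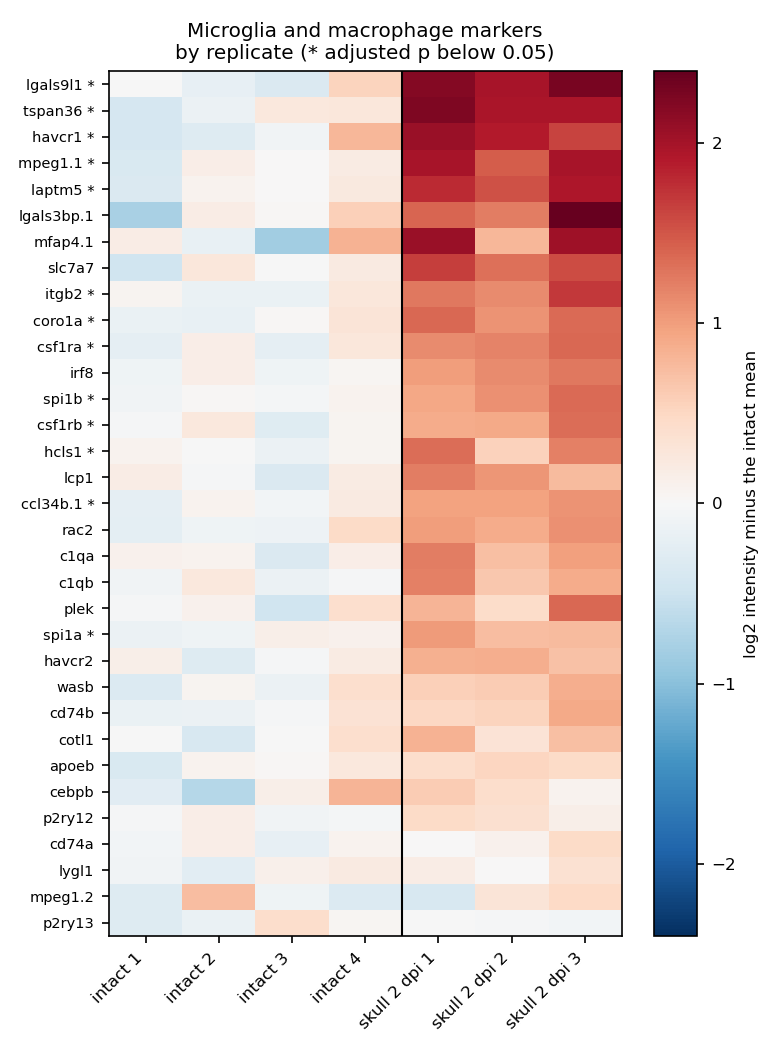
The 33 tested markers of microglia and macrophages (rows, ordered by their difference) in the 4 intact and 3 skull 2 dpi replicates (columns), coloured by log2 intensity minus the mean of the intact replicates, with an asterisk for an adjusted p below 0.05. The upper rows are red in all 3 skull replicates, skull replicate 2 is the palest for hcls1 and mfap4.1, and the lowest rows, p2ry13 and mpeg1.2, show no separation of the groups.

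Among the 43 genes listed for lysosome and phagocytosis 28 were tested and 6 rose (grna.1, tspan36, ctsz, ctsk, ctss2.1 and ctsc), beside 0.39% of all genes, with a median of 0.39 over the 28. Of these tspan36 also stands in the macrophage list. The intact mean of ctss2.1, 4.32 when rounded, lay just under the limit of the filter. This gene therefore entered the test only through groups with an injury. The gene grna.1, which encodes a granulin precursor that is processed in lysosomes, measured 6.08, 6.16, 4.86 and 6.49 in intact and 8.65, 7.60 and 7.78 after injury. It rose by 2.11 ± 0.38, or 4.32-fold (adjusted p = 0.0097), with intact replicate 3 far below the others, and the call was lost without skull replicate 1 (adjusted p = 0.116). The cathepsins are the proteases of this compartment. The gene ctsk, whose mammalian counterpart degrades collagen, was at 5.64, 5.67, 5.75 and 6.35 in intact and 7.64, 7.16 and 7.33 after injury and rose by 1.52 ± 0.26 (adjusted p = 0.00522, and 0.0638 without skull replicate 1). ctsz rose by 1.57 ± 0.31 (adjusted p = 0.0181), ctss2.1 by 1.35 ± 0.27 (adjusted p = 0.0235) and ctsc, an activator of other leukocyte proteases in mammals, by 1.31 ± 0.29 (adjusted p = 0.045). Outside the list, the aspartic protease gene napsa rose by 0.99 ± 0.20 (adjusted p = 0.0235), the carboxypeptidase gene scpep1 by 1.05 ± 0.19 (adjusted p = 0.011) and the dipeptidase gene cndp2 by 1.21 ± 0.19 (adjusted p = 0.00414). Also outside this list, laptm5, which encodes a lysosomal membrane protein of leukocytes, measured 6.72, 7.16, 7.08 and 7.31 in intact and 8.86, 8.59 and 9.01 after injury. Its rise of 1.75 ± 0.22 (adjusted p = 0.000563) was matched by its other probe set, at 1.70 ± 0.24 (adjusted p = 0.00117). Without skull replicate 1 or 3 the calls of ctsz, ctss2.1, ctsc, napsa and scpep1 were lost, with adjusted p up to 0.231, while those of laptm5 and cndp2 were kept in every omission. The calls of ctsz, ctss2.1 and ctsc were also lost without skull replicate 2 and without intact replicate 2 or 3, that of ctsc without intact replicate 1 as well, and that of napsa without intact replicate 1, 3 or 4.

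Of the genes listed for antigen processing 3 were called. The gene ifi30a encodes a lysosomal thiol reductase that unfolds antigens for presentation on class II molecules. It was at 6.56, 6.86, 6.46 and 6.99 in intact and at 8.61, 8.52 and 8.87 after injury, without an overlap, and rose by 1.95 ± 0.24, or 3.85-fold (adjusted p = 0.000563). The gene psme1, a subunit of the proteasome activator that serves class I presentation, measured 6.28, 6.17, 6.47 and 6.55 in intact and 7.76, 7.45 and 8.05 after injury, a rise of 1.38 ± 0.22 (adjusted p = 0.00303). The invariant chain genes were abundant in all replicates and were not called, with cd74a at 0.18 ± 0.15 (adjusted p = 0.763) and cd74b at 0.64 ± 0.22 (adjusted p = 0.366). Of the 6 class II genes tested 2 rose (ifi30a and ctss2.1), with a median of 0.41. Of the 18 genes of class I presentation and the immunoproteasome 1 rose, with a median of 0.33. Both counts stand beside 0.39% of all genes. However, ctss2.1 entered the test only through groups with an injury. So did 4 of the 18 class I genes, with linear intact means at or below 20, which favours higher estimates.

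Signalling proteins of leukocytes were called one by one across several lists. The gene pycard encodes Asc, the adaptor that links sensors of the inflammasome to caspase-1. It measured 3.66, 3.66, 3.47 and 3.33 in intact, below the linear mean of 20, and 5.36, 5.63 and 5.39 after injury, a rise of 1.93 ± 0.28 (adjusted p = 0.00122). The gene ptpn6 encodes the phosphatase Shp1, which dampens receptor signalling in blood cells, and was at 5.38, 5.87, 5.86 and 5.86 in intact and 7.67, 7.30 and 7.57 after injury. It rose by 1.77 ± 0.29 (adjusted p = 0.00497, and 0.0503 without skull replicate 1), and its other probe set rose by 1.58 ± 0.31 (adjusted p = 0.0173). Ship1 is a lipid phosphatase with a similar restraining role, and its gene inpp5d rose by 1.44 ± 0.27 (adjusted p = 0.0117). The adaptor genes grapa and sla1a rose by 1.70 ± 0.34 and 1.18 ± 0.22 (adjusted p = 0.0216 and 0.011). The gene lta4h, for the hydrolase that makes leukotriene B4, rose by 0.78 ± 0.15 (adjusted p = 0.0129). The gene tnfaip6, which encodes a hyaluronan-binding protein secreted in inflammation, measured 3.55, 3.57, 3.74 and 4.11 in intact and 4.64, 4.79 and 4.78 after injury, a rise of 0.99 ± 0.20 (adjusted p = 0.0197). Without skull replicate 1 or 3 the calls of inpp5d, grapa, sla1a, lta4h and tnfaip6 were lost, with adjusted p up to 0.145, while that of pycard was kept in every omission. The calls of grapa and lta4h were also lost without intact replicate 2, that of grapa without intact replicate 1 as well, and that of tnfaip6 in every omission except that of intact replicate 4. In the list of cytokines and the NF-kB pathway, of which 14 members on the array did not pass the filter, the called genes were pycard and tnfaip6. Both had linear intact means at or below 20 and thus entered the test only through groups with an injury. Outside this list, the same held for ctss2.1 by the mean of log2 values that the filter used. The number of calls in the cytokine list therefore says nothing about that list. In the JAK-STAT list ptpn6 alone rose among 24 (0.39% of all genes), with a median of 0.10, and stat3 was at 0.65 ± 0.23 (adjusted p = 0.386).

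Chemokines and their receptors were called in 1 case each. The gene ccl34b.1, whose chemokine is expressed by zebrafish microglia, was abundant in both groups, at 9.75, 10.05, 9.90 and 10.18 in intact and 10.94, 10.93 and 11.05 after injury. Its rise of 1.00 ± 0.16, or 2.01-fold (adjusted p = 0.00435), was kept in every omission. It was the only 1 of 15 tested ligands to rise, and ccr12a the only 1 of 8 tested receptors, beside 0.39% of all genes, with list medians of 0.10 and 0.18. Of the 15 ligands, 5 had linear intact means at or below 20 and entered the test only through groups with an injury, which favours higher estimates. The receptors and ligands of the Cxcr3 family, which the study examined, were near the lower limit of the test. The gene cxcr3.2 was at 4.36 to 4.54 in intact and 4.76 to 5.06 after injury (0.47 ± 0.19, adjusted p = 0.464), and cxcr3.3 at 4.43 to 4.62 and 4.57 to 5.16 (0.32 ± 0.21, adjusted p = 0.696). The genes cxcr3.1 and cxcl11.1 did not pass the filter on low values, with cxcr3.1 at 3.68 to 4.31 in intact and 4.17 to 4.50 after injury and cxcl11.1 at 2.79 to 3.36 and 2.78 to 3.08. The genes cxcl11.5, cxcl13 and irf2 were not analysed here.

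Regulators of the actin cytoskeleton and of cell adhesion were among the called genes, and most of them stand in none of the lists, as do 31 of the 56 genes that rose (with the unmatched MARCO counted among the 31). They are named here because they were called, not as a tested group. The gene arpc1b, a subunit of the Arp2/3 complex that nucleates actin branches, measured 6.41, 6.64, 6.35 and 6.85 in intact and 8.15, 7.73 and 8.06 after injury, a rise of 1.42 ± 0.23 (adjusted p = 0.00435). The gene nckap1l, for the blood cell subunit of the Wave complex that activates Arp2/3, rose by 1.38 ± 0.24 (adjusted p = 0.00584), and the profilin gene pfn1 by 1.08 ± 0.22 (adjusted p = 0.023). The integrin beta-2 gene itgb2, of the macrophage list, rose by 1.37 ± 0.29 (adjusted p = 0.0301), and apbb1ip, whose product couples small GTPases to integrins, by 1.15 ± 0.22 (adjusted p = 0.0169). The leukocyte actin regulators coro1a and hcls1, of the same list, rose by 1.27 ± 0.25 and 1.03 ± 0.21 (adjusted p = 0.0169 and 0.0216). The call of arpc1b was kept in every omission of a replicate, and that of nckap1l was lost only without skull replicate 3 (adjusted p = 0.0516). Those of pfn1, itgb2, apbb1ip, coro1a and hcls1 were each lost without skull replicate 1 or 3, and all 5 also without intact replicate 1, with adjusted p up to 0.234. Further losses were those of coro1a, hcls1 and itgb2 without intact replicate 2, of pfn1, hcls1 and itgb2 without intact replicate 3, and of pfn1 and itgb2 without skull replicate 2.

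Further called genes belong to other kinds of protein. The gene c1ql1, which encodes a secreted C1q-like protein that acts at synapses in mammals, measured 5.32, 5.77, 5.32 and 6.98 in intact and 8.69, 8.11 and 7.74 after injury. Its rise of 2.34 ± 0.44 (adjusted p = 0.0148) was the second largest among named genes, and intact replicate 4 was the highest of its group. The gene anxa2a, for a membrane-binding annexin that promotes fibrinolysis in mammals, was at 7.93 to 8.98 in intact and 9.50 to 10.05 after injury and rose by 1.32 ± 0.25 (adjusted p = 0.0128). The calls of c1ql1 and anxa2a were lost without intact replicate 1 and without skull replicate 1 or 2, and that of c1ql1 also without intact replicate 2 or 3, with adjusted p up to 0.136. The gene mcamb, which encodes an adhesion molecule of vessels, measured 6.92, 7.11, 7.06 and 6.91 in intact and 8.02, 8.11 and 8.50 after injury, a rise of 1.21 ± 0.18 (adjusted p = 0.00184) that every omission kept. The gene enpp1, for an enzyme that splits extracellular nucleotides, rose by 1.38 ± 0.22 (adjusted p = 0.00414), the keratin gene krt18b by 1.13 ± 0.23 (adjusted p = 0.0267), and the cryptochrome gene cry4 by 0.79 ± 0.16 (adjusted p = 0.0193). Of these enpp1 was called in every omission, while krt18b and cry4 were lost without any 1 of the skull replicates (adjusted p up to 0.208), and without intact replicate 1, 2 or 3 for krt18b and 2, 3 or 4 for cry4. The noradrenaline transporter gene slc6a2 rose by 0.77 ± 0.17 (adjusted p = 0.0469) and was lost in 6 omissions, that of intact replicate 1 being the exception, with adjusted p up to 0.239. Other named genes that rose were anxa4, dlk2, gpr137c, mpp1, slc43a3b, zgc:64051, zgc:110239, si:zfos-741a10.3, si:dkey-27i16.2 and si:dkey-22o12.2, by 0.62 to 1.51. Of these 10 si:dkey-27i16.2 and si:dkey-22o12.2 were called in every omission, and the others were lost in at least 1, with adjusted p up to 0.288. The other probe set of anxa4 had the opposite sign, at -0.59 ± 0.29 (adjusted p = 0.565).

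Falls were few. The single named gene that fell was LOC559664, from 4.94, 5.27, 5.03 and 5.05 in intact to 4.65, 4.34 and 4.40 after injury, a change of -0.61 ± 0.13 (adjusted p = 0.0462) that was lost in each of the 7 omissions (adjusted p up to 0.257). The 7 unnamed transcripts that fell include 3 with the same values. Probe set 13298972 fell by 2.18, with intact values of 7.10, 5.83, 5.61 and 3.29 and skull values of 3.16 to 3.46, so that its intact replicates spread more widely than the difference to the skull group. Probe set 13239923 fell by 0.97, from 5.05 to 5.74 in intact to 4.01 to 4.72 after injury. The largest rises of all were also unnamed, 3.53 for probe set 13301772 and 3.25 for 13283626, with intact values of 4.63 to 5.98 and 4.66 to 5.94 and skull values of 8.24 to 9.31 and 8.05 to 9.38.

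Several immune lists held no called gene. Of 19 tested interferon response genes none rose or fell, 4 were higher and 1 lower at an unadjusted p below 0.05 (7.41% and 2.29% of all genes), and the median was 0.35. Linear intact means at or below 20 were found in 7 of these 19. They were also found in 3 of 11 Toll-like receptors and adaptors and in 3 of 13 complement genes. Such genes entered the test only through groups with an injury, which favours higher estimates. The counts of such genes, here and for other lists, rest on averages of linear intensities. Because the filter averaged log2 values, these counts are lower bounds. The gene irf1b was at 6.41 to 6.83 in intact and 7.51 to 8.03 after injury (1.14 ± 0.40, adjusted p = 0.378), gbp1 at 0.92 ± 0.38 and mxa at 0.85 ± 0.36 (adjusted p = 0.477 and 0.491). The genes mxc, mxe and irf7 differed by 0.75 ± 0.63, 0.52 ± 0.33 and 0.50 ± 0.49 (adjusted p = 0.765, 0.67 and 0.813), and the kinase gene eif2ak2 by -0.26 ± 0.12 (adjusted p = 0.535). Among 11 tested Toll-like receptors and adaptors the median was 0.20, with tlr8b at 0.92 ± 0.27 and tlr21 at 1.05 ± 0.36 (adjusted p = 0.224 and 0.361). The gene tlr2 did not pass the filter, at 3.44 to 3.67 in intact and 3.34 to 3.55 after injury. In the complement list 7 of 13 were higher at an unadjusted p below 0.05 (7.41% of all genes) and the median was 0.44. Its first component genes c1qa and c1qb did not overlap between the groups, at 0.97 ± 0.27 and 0.92 ± 0.27 (adjusted p = 0.191 and 0.224). The 6 tested genes of the phagocyte oxidase had a median of 0.61, led by rac2 at 1.00 ± 0.28 and cybb at 0.69 ± 0.35 (adjusted p = 0.189 and 0.573).

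Neutrophils are the other phagocytes that reach a wound, and their markers were measured near the lower limit of the test. Of the 8 tested, 4 had a linear intact mean at or below 20, and 5 more on the array did not pass the filter. These 4, with adam8a (3.28 to 3.75 in intact) among them, entered the test only through groups with an injury, which favours higher estimates. The defining myeloperoxidase gene mpx lay at 4.25 to 4.40 in intact and 4.07 to 4.31 after injury, around the linear mean of 20. The lysozyme gene lyz was at 5.89 to 6.23 in 3 intact replicates, 8.23 in intact replicate 4 and 5.62 to 6.79 after injury (-0.44 ± 0.58, adjusted p = 0.868). Without intact replicate 4 the log2 difference of lyz was 0.10. The receptor gene csf3r and the protease gene adam8a were higher in all 3 skull replicates, at 0.93 ± 0.27 and 0.88 ± 0.24 (adjusted p = 0.232 and 0.172). At an unadjusted p below 0.05, 2 of the 8 were higher (7.41% of all genes) and none lower. In 2 all skull values lay above all intact values (9.78% of all genes). None of the 8 tested markers was called, and their median was 0.01. Their summed level was 367, 369, 375 and 701 in intact replicates 1 to 4 and 380 to 454 after injury. Of T and NK cell markers 4 of 16 and of B cell markers 2 of 8 were tested, and none was called.

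The median of each list is set beside that of all genes in the plot of gene lists.

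**Figure D3:**
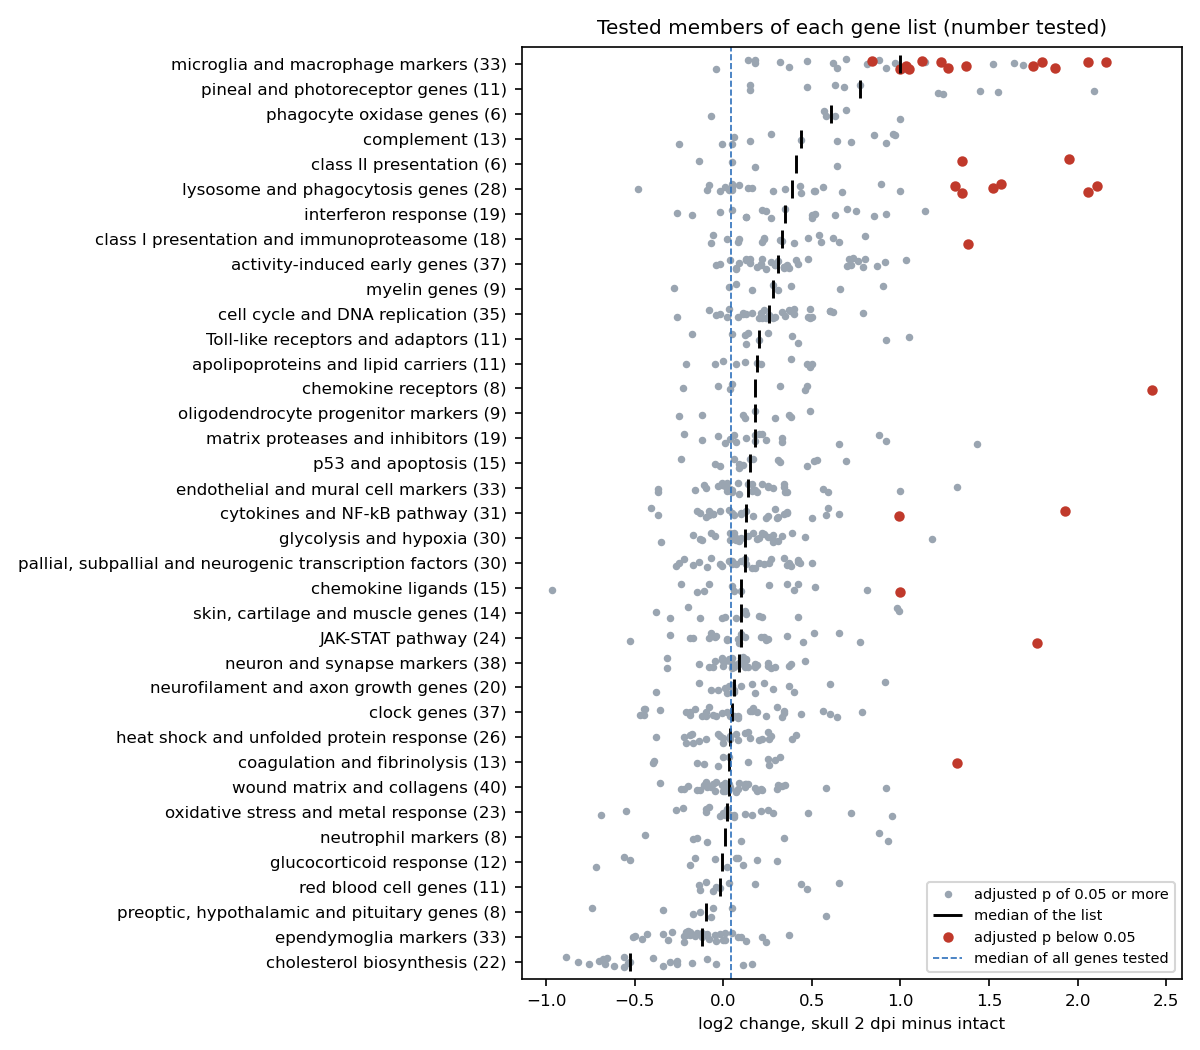
Differences between skull 2 dpi and intact (horizontal axis, log2) for each tested member of the gene lists with at least 6 tested members (rows, with the number tested). Red points have an adjusted p below 0.05, grey points do not, black bars are list medians and the dashed line is the median of all genes tested, 0.045. The macrophage list has the highest median, 1.00, and the cholesterol list the lowest, -0.53.

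No gene of the wound matrix was called. Among 40 tested matrix genes and collagens none was called and the median was 0.03. The fibronectin gene fn1b was nearest to the threshold, at 4.68, 4.84, 4.99 and 4.56 in intact and 5.39, 5.70 and 5.97 after injury, a difference of 0.92 ± 0.21 (adjusted p = 0.055). Of 19 tested matrix proteases and inhibitors none was called. Linear intact means at or below 20 were found in 6 of the 40 and in 4 of the 19. Such genes entered the test only through groups with an injury, which favours higher estimates. The gene mmp9, for a gelatinase induced in wounds, was at 3.75 to 4.67 in intact and 5.38 to 5.99 after injury (1.43 ± 0.35, adjusted p = 0.0949), the metalloproteinase gene mmp14b at 0.92 ± 0.23 (adjusted p = 0.109) and the inhibitor gene timp2b at 0.65 ± 0.19 (adjusted p = 0.224). Among 33 tested endothelial and mural cell markers pecam1a was the most changed, at 1.32 ± 0.31 (adjusted p = 0.0846), and the median was 0.14. Among 13 tested coagulation genes 1 rose, anxa2a (0.39% of all genes).

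Markers of ependymoglia, oligodendrocyte progenitors, myelin and neurons were not called in either direction. Of 33 ependymoglia markers 24 had a lower estimate (39.8% of all genes), the median was -0.12 and 4 did not overlap with intact, all lower (3.12% of all genes). These were the glutamine synthetase gene glulb (-0.51 ± 0.19, adjusted p = 0.407), the growth factor gene mdkb (-0.20 ± 0.09, adjusted p = 0.522), the aromatase gene cyp19a1b (-0.19 ± 0.11, adjusted p = 0.639) and the Notch target her4.1 (-0.46 ± 0.25, adjusted p = 0.61). The glial filament gene gfap had the opposite sign, with 7.55 to 8.18 in intact and 8.04 to 8.37 after injury. Among 9 oligodendrocyte progenitor markers the median was 0.18, and olig2 was at 8.02 to 8.77 in intact and 8.68 to 8.93 after injury (0.38 ± 0.18, adjusted p = 0.532). Of 9 tested myelin genes 8 had a higher estimate (60.2% of all genes), with the claudin gene cldnk at 0.90 ± 0.25 (adjusted p = 0.192). The 38 neuron and synapse markers had a median of 0.09, led by the GABA-synthesizing gad1b (0.46 ± 0.14, adjusted p = 0.244) and by elavl4 (0.27 ± 0.10, adjusted p = 0.453).

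Cell cycle genes had a small upward difference without a call. Of 35 tested, 31 had a higher estimate (60.2% of all genes), 14 did not overlap with intact and were higher (against 9.78% of all genes), and the median was 0.26. Of the 35, 7 had a linear intact mean at or below 20, kif20a among them. These 7 entered the test only through groups with an injury, which favours higher estimates. The gene kif20a, for a kinesin of cytokinesis, was at 3.95 to 4.15 in intact and 4.31 to 4.91 after injury (0.49 ± 0.13, adjusted p = 0.165). The ubiquitin-conjugating enzyme gene ube2c was at 0.38 ± 0.11, the spindle gene nusap1 at 0.62 ± 0.20 and the topoisomerase gene top2a at 0.60 ± 0.19 (adjusted p = 0.244, 0.296 and 0.296). Of 37 activity-induced early genes 35 had a higher estimate (60.2% of all genes) and the median was 0.31. The AP-1 gene junba measured 9.48, 8.98, 9.11 and 9.25 in intact and 10.25, 10.03 and 9.74 after injury (0.80 ± 0.20, adjusted p = 0.117), sik1 was at 0.76 ± 0.19 (adjusted p = 0.123) and atf3 at 0.71 ± 0.24 (adjusted p = 0.352). Clock genes had estimates of both signs, with 6 higher (9.78% of all genes) and 6 lower (3.12% of all genes) without an overlap among 37, and with the repressor genes nfil3 and bhlhe40 at 0.60 ± 0.15 and 0.34 ± 0.10 (adjusted p = 0.106 and 0.213).

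Cholesterol biosynthesis had the lowest median of the lists, -0.53 over 22 tested genes, of which 20 had a lower estimate (39.8% of all genes). None was called and none was without an overlap. The intact replicates themselves were spread widely. The gene hmgcra, for the rate-limiting reductase, measured 8.29 and 7.95 in intact replicates 1 and 2, 6.38 and 6.14 in intact replicates 3 and 4, and 5.91, 6.02 and 7.18 after injury (-0.82 ± 0.50, adjusted p = 0.654). The gene msmo1 was likewise highest in intact replicates 1 and 2, with 10, 9.34, 7.95 and 8.29 in intact and 7.60, 7.67 and 8.74 after injury (-0.89 ± 0.45, adjusted p = 0.581).

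Skull replicate 3 had high levels of pineal and photoreceptor genes. The rod transducin gene gnat1 was at 7.86 there and at 3.22 to 3.32 in the other 6 replicates, and the pineal opsin gene exorh at 10.14 against 5.36 to 6.04. The summed level of the 11 tested pineal and photoreceptor genes was 3232 in this replicate and 253 to 285 in the others, and none of them was called. High levels were also found in nostril 2 dpi replicate 2 (exorh 9.48, gnat1 7.21) and nostril 1 dpi replicate 3 (exorh 10.19, gnat1 8.83). Without skull replicate 3 exorh was at -0.02 and the transducin gene gngt1 at -0.13, in place of 1.45 ± 0.99 and 2.09 ± 1.48 (adjusted p = 0.701 and 0.713). A pair of hypoxia-responsive genes was high in the other skull replicates and not in this one. The gene egln3, for an oxygen sensor, was at 7.14 and 7.12 in skull replicates 1 and 2, 5.41 in replicate 3 and 4.86 to 5.80 in intact (1.18 ± 0.39, adjusted p = 0.326), and ankrd37, a target of hypoxia-inducible factor in mammals, at 7.19, 7.41 and 4.70 after injury and 4.14 to 5.44 in intact. Without skull replicate 3, 45 transcripts were called in place of 123, beside 38 without skull replicate 1 and 78 without skull replicate 2. Skin, cartilage and muscle genes ranged from 1674 to 3996 in intact and from 2915 to 5291 after injury in summed level, with krt5 highest in skull replicate 1 (8.03), and red blood cell genes from 410 to 876 and from 542 to 809, and no gene of either list was called. The part of these tissues in the differences was not tested.

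The nostril injury at 2 dpi, which shares no sample with the skull group, was compared directly, with 1 replicate in each group that had high pineal and photoreceptor genes. No transcript of 40670 differed by adjusted p in limma, and 957 (2.35%) did at an unadjusted p below 0.05. Over the 56 genes that rose after skull injury the median of skull minus nostril was 0.10, with 37 estimates above 0 and 19 below. The genes were chosen for high values on the same skull arrays, which favours estimates above 0, and the split is given as a description. The 95% intervals of these differences had a median width of 1.02, and 52 of the 56 lay within 1 log2 unit of 0, so that 2-fold differences were bounded for most but smaller ones were not. tnfaip6 was the gene with the smallest p, higher after skull injury by 0.81 ± 0.21 with an interval of 0.38 to 1.24 (adjusted p = 1), followed by cry4 at 0.49 ± 0.17 with 0.15 to 0.84 (adjusted p = 1). Against the same intact replicates, 46 of the 56 also rose at nostril 2 dpi, and that count shares its controls with the comparison that chose the genes.

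Between 1 and 2 dpi after skull injury 8 transcripts differed (0.0197%), 1 higher (0.00246%) and 7 lower (0.0172%) at 2 dpi. The invariant chain gene cd74a was the one that was higher, by 0.91 ± 0.16 (adjusted p = 0.0476), and averaged 9.60 at 1 dpi, 10.51 at 2 dpi and 10.33 in intact. No transcript was called higher with only these groups fitted, without skull 3 dpi in the fit, without the filter, with the replicate number as a block, or in 5 of the 6 omissions, the exception being that of skull 2 dpi replicate 3. The chemokine gene ccl34a.4 was lower at 2 dpi, with a difference of -4 ± 0.69 (adjusted p = 0.033) and of -4.19 ± 0.68 with its other probe set (adjusted p = 0.0191), and at 2 dpi it lay within 3.80 to 5.02 together with the intact replicates. LOC100536946 differed by -3.66 ± 0.38 (adjusted p = 3.11e-05) and the erythroid factor gene klf1 by -0.95 ± 0.13 (adjusted p = 0.00404). Among named genes 4 were called (0.0278%), 3 of them lower (0.0209%), and none was among the 56 that rose at 2 dpi, whose median difference was 0.01. Their estimates pointed both ways. The genes ifi30a and ccl34b.1 were higher at 2 than at 1 dpi by 1.11 ± 0.26 and 0.77 ± 0.18 (adjusted p = 0.427 and 0.377), while grna.1 and anxa2a were at -1.05 ± 0.41 and -0.67 ± 0.26 (adjusted p = 1 for both). With only these groups fitted no transcript was called, and leaving out 1 replicate of either group gave 2 calls (without skull 1 dpi replicate 1) to 17 (without skull 1 dpi replicate 3).

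**Figure D4:**
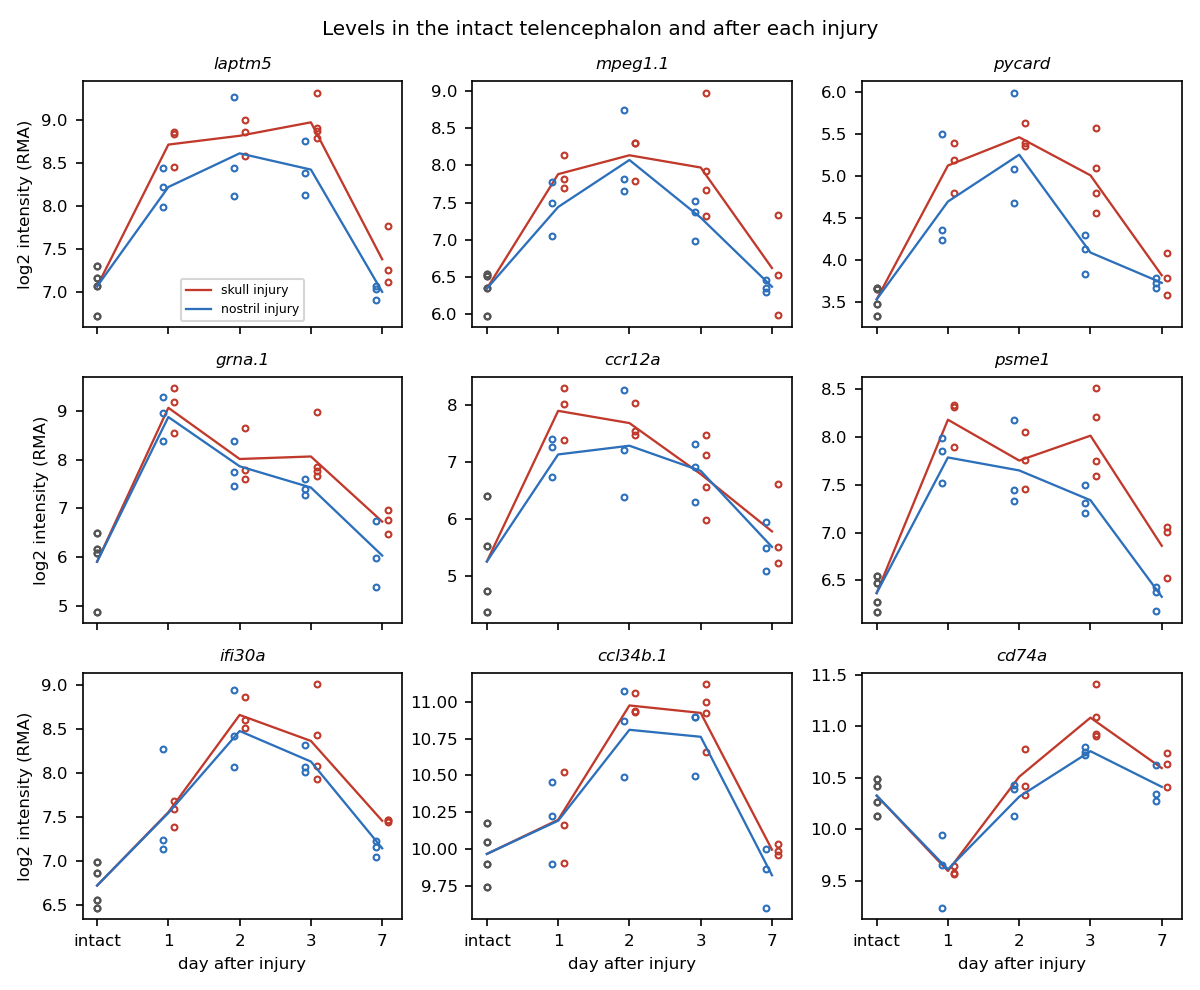
Log2 intensity (RMA, vertical axis) of 9 genes in the intact telencephalon and at 1, 2, 3 and 7 days after skull (red) or nostril (blue) injury, with 1 open symbol per replicate and lines through the group means. At 2 dpi the group means of both injuries lie above intact for laptm5, mpeg1.1, pycard, grna.1, ccr12a, psme1, ifi30a and ccl34b.1, and cd74a is lowest at 1 dpi, at a mean of 9.60 after skull injury.

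From 2 to 3 dpi 1892 transcripts differed (4.65%), 475 higher (1.17%) and 1417 lower (3.48%) at 3 dpi, but the count turned on the replicates and on the fit. With only these groups fitted no transcript was called, and leaving out 1 replicate gave 143 (without skull 2 dpi replicate 2) to 5177 (without skull 3 dpi replicate 2). The mean variance within the skull 3 dpi group was 0.173, against 0.073 to 0.10 in the others. Of the 56 genes that rose at 2 dpi 3 were lower at 3 dpi, namely si:dkey-22o12.2 (-0.92 ± 0.15, adjusted p = 0.00465), cry4 (-0.68 ± 0.16, adjusted p = 0.0186) and dlk2 (-0.54 ± 0.15, adjusted p = 0.0383), and none was higher, beside 3.99% of all genes lower and 0.571% higher. The choice of the genes by high values at 2 dpi favours lower estimates at 3 dpi, and these counts are a description. Their median was -0.10. Outside these, the largest named falls were ankrd37 (-2.05 ± 0.45), oatx (-1.53 ± 0.42), rhoga (-1.12 ± 0.21) and the gap junction gene gja1b (-1.08 ± 0.25), and the largest rises il4i1 (2.34 ± 0.58), ifi44a8 (1.53 ± 0.22), the immunoproteasome gene psmb13a (1.23 ± 0.34) and otud4 (1.12 ± 0.19). For ankrd37, skull 2 dpi replicate 3 was at 4.70 and lay within the skull 3 dpi values of 4.09 to 4.77.

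Against the same intact replicates, the 56 genes that rose at skull 2 dpi had median differences of 1.29 at 1 dpi, 1.25 at 3 dpi and 0.48 at 7 dpi after skull injury, with 45, 46 and 3 of them called higher. These values share the intact controls with the comparison that chose the genes and are given as a description.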

How the data were processed

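Total RNA of the whole telencephalon was amplified (Ovation Pico WTA System), and the cDNA was placed on Affymetrix Zebrafish Gene 1.0 ST arrays, 1 array per sample. On the log2 scale, the authors obtained each deposited intensity by robust multi-array averaging (RMA) in Affymetrix Expression Console 1.3, which corrects background, normalizes quantiles across arrays and summarises each probe set by median polish. Because all arrays were normalized together, changes that affect most transcripts would be reduced. The scans themselves were not analysed here, and the number of arrays, not a read depth, limits the precision.

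Groups came from the sample titles, and both technical arrays of intact replicate 1 were averaged. Each of the 75212 probe sets was fitted with a mean per group in limma 3.58.1 under R 4.3.3 (lmFit and eBayes, 20 residual and 3.51 prior degrees of freedom), a script that was tested on simulated data. The 40670 probe sets whose linear mean exceeded 20 in 1 or more groups entered the Benjamini-Hochberg adjustment. P-values are two-sided. The platform annotation gives 1 symbol to 20806 probe sets and several to 855, and 1 symbol was updated. Named were the 15 largest rises and falls among called genes without an overlap, up to 4 members of each of the 40 gene lists by p, genes the study discusses, up to 4 genes per direction in each comparison between injuries, and tissue markers. Other called genes, p2ry12, p2ry13, mpeg1.2 and some further list members were named after their values were seen. Results on 2 of the called genes are not reported here. The members and lists were chosen with earlier results of these data known. Alternatives covered the samples fitted, the technical arrays, normalization, the filter, variance moderation, array weights, the replicate number as a block and the omission of each replicate.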

Additional observations from a re-analysis of the deposited data

Results flagged for a closer look

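Genes that differed between skull injury at 2 dpi and the neighbouring time points by the adjusted p of limma are given as values, with the test of the difference itself. Between 1 and 2 dpi these were cd74a (0.91), ccl34a.4 (-4), LOC100536946 (-3.66) and klf1 (-0.95). From 2 to 3 dpi il4i1 (2.34), ifi44a8 (1.53), psmb13a (1.23), otud4 (1.12) and cd74a (0.57) were higher at 3 dpi. Lower at 3 dpi were ankrd37 (-2.05), oatx (-1.53), rhoga (-1.12), gja1b (-1.08), si:dkey-22o12.2 (-0.92), timp2b (-0.79), sik1 (-0.76), cry4 (-0.68), nfil3 (-0.58), dlk2 (-0.54), cyp19a1b (-0.48), kif20a (-0.45) and tbr1b (-0.40). With only the pair of groups compared in the fit, neither contrast held a called transcript.

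In 12 of 160 named genes 1 intact replicate lay apart from the others by Dixon's ratio at its 95% limit for 4 samples, where chance gives about 1 in 20. Replicate 4 was the highest for avp (11.68, others 10.18 to 10.24), lyz (8.23, others 5.89 to 6.23), mfap4.2 (8.63, others 7.24 to 7.40), ctsk (6.35, others 5.64 to 5.75), il6st (8.04, others 7.34 to 7.36), klf2b (5.27, others 4.49 to 4.56) and tbr1b (9.93, others 9.80 to 9.82). Replicate 1 was the lowest for ptpn6 (5.38, others 5.86 to 5.87) and pecam1a (5.57, others 6.08 to 6.16), replicate 2 for bhlhe40 (9.50, others 9.81 to 9.86) and emx3 (8.04, others 8.30 to 8.34), and replicate 3 for c1qa (4.12, others 4.56 to 4.64).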

How the results depend on the processing

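The 57 called genes kept their direction under all 18 alternatives, and 12 of them were called under each. For the omission of a replicate the direction was fixed in advance, because the values of these genes did not overlap between the groups. Changes to the filter, to the other groups fitted or to the variance moderation left the group means as they were. The 123 called transcripts became 201 without the skull 3 dpi group in the fit and 242 with array weights, and the omission of single replicates gave 38 to 133. With only the intact and skull 2 dpi arrays fitted, 131 transcripts were called, of which 75 were among the 123, and 36 of the 57 genes kept their call. The 25 calls in gene lists became 40 with array weights and 7 to 26 with a replicate omitted. The 781 transcripts by the criteria of the methods ranged from 634 to 1053 over the omissions. No alternative gave a call between skull and nostril injury at 2 dpi. The 8 transcripts between skull 1 and 2 dpi became 0 with only these groups fitted, 5 without skull 3 dpi, 13 with array weights and 2 to 17 with a replicate omitted. The 1892 transcripts between skull 2 and 3 dpi became 0, 1037 without the filter, 905 with array weights and 143 to 5177. For all these counts the cause was not tested. Single genes that were not called changed sign. The lyz difference ranged over the omissions from -0.75 to 0.10 (without intact replicate 4), exorh from -0.02 (without skull 2 dpi replicate 3) to 2.25 and gngt1 from -0.13 (same replicate) to 3.24. The range of mpeg1.2 was -0.04 (without skull 2 dpi replicate 3) to 0.40, and that of p2ry13 was -0.14 to 0.10, with 0.02 from technical array 1 alone and 0 after centring arrays on their median. Deviations of same-numbered intact and skull replicates correlated at -0.021, 0.024 and 0.020, and those of other pairs at -0.073 to 0.058. These values gave no sign of a pairing by replicate number. So few replicates cannot exclude one, and whether same-numbered samples were processed together was not tested. With the number as a replicate block 105, 808, 23, 0, 6 and 2010 replaced 123, 781, 25, 0, 8 and 1892 calls, and 44 of the 57 genes kept theirs. Probe sets with identical values counted once, a choice made after seeing the data, gave 118 in place of 123 and 631 in place of 781.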

Other observations

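Differences in further gene groups are skull 2 dpi minus intact on the log2 scale with the adjusted p of limma. Among 23 tested genes of oxidative stress and metal response the median was 0.02, and the glutathione peroxidase gene gpx1b was lower without an overlap, at 7.33 to 7.75 in intact and 6.64 to 6.94 after injury (-0.69 ± 0.17, adjusted p = 0.109), while the thioredoxin inhibitor gene txnipa was higher without an overlap (0.72 ± 0.25, adjusted p = 0.373). Among 15 genes of p53 and apoptosis the median was 0.15, with the p53 target rps27l at 5.46 to 5.75 in intact and 6.10 to 6.54 after injury (0.69 ± 0.20, adjusted p = 0.224). Among 20 neurofilament and axon growth genes the median was 0.06, with the neurofilament gene nefma at 5.42 to 6.23 and 6.40 to 7.00 (0.91 ± 0.29, adjusted p = 0.3).

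Among 12 genes of the glucocorticoid response the median was -0.01, and klf9 was lower without an overlap, at 9.98 to 10.38 in intact and 9.32, 9.32 and 9.86 after injury (-0.72 ± 0.46, adjusted p = 0.673). Among 26 genes of heat shock and the unfolded protein response the median was 0.04, with the chaperone gene pdia4 at 0.41 ± 0.15 (adjusted p = 0.381). The 30 pallial, subpallial and neurogenic transcription factors had a median of 0.12, with isl1a at 0.50 ± 0.20 (adjusted p = 0.472). The 11 apolipoprotein and lipid carrier genes had a median of 0.19, with the cholesterol exporter gene abca1b at 0.50 ± 0.21 (adjusted p = 0.498), and the 30 genes of glycolysis and hypoxia one of 0.12, with the hexokinase gene hk1 at 0.28 ± 0.09 (adjusted p = 0.326). The 8 preoptic, hypothalamic and pituitary genes had a median of -0.10, with trh at 7.38 to 7.92 in intact and 8.15 to 8.48 after injury (0.58 ± 0.19, adjusted p = 0.305), and the 2 tested olfactory genes one of -0.05. No gene of these 10 lists was called.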
